A study of Mus musculus with 2 samples.

Results

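The genes described here are the 34 genes of glycolysis and the pentose phosphate pathway: glucose and lactate carriers, the enzymes from hexokinase to lactate dehydrogenase with their isoenzymes, the enzymes that set the level of bisphosphoglycerate and fructose bisphosphate, and the pentose phosphate enzymes. They were taken from a list in pathway order and matched by gene identifier, and all 34 were found among the 43346 Ensembl genes of the tables. RNA described as polyadenylated was sequenced as paired ends from G1E-ER4 cells, an immortalized male mouse line of the erythroid lineage recorded as postnatal. The parent G1E cells lack Gata1, and every cell of this single group carries GATA1 joined to the hormone-responsive part of an estrogen receptor, active in the presence of ligand, and was labelled as induced to differentiate with estradiol, for which neither dose nor time is given. Cells without estradiol and the parent line were not analysed here, so no value below is an effect of induction. The group holds 2 libraries, labelled biological replicates 1 and 2, which cite the same biosample record, so the spread between them may be technical.

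Glycolysis splits glucose into pyruvate through a chain of soluble enzymes and yields ATP and NADH, and lactate dehydrogenase turns pyruvate into lactate to recover NAD+. The pentose phosphate pathway branches off at glucose 6-phosphate: its oxidative arm makes NADPH, which protects red cells from oxidative damage, and its other arm interconverts sugars and makes ribose phosphate for nucleotides. Mature red cells have no mitochondria and live on glycolysis, with a side branch to bisphosphoglycerate that lowers the oxygen affinity of haemoglobin, and several steps have a form of the enzyme typical of the erythroid lineage.

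Depth was 68901065 estimated counts for replicate 1 and 51923117 for replicate 2. All 7 erythroid markers reached 1 TPM (an abundance that divides counts by transcript length and has the same total in every library) in both libraries. Gata1, 1 of the 7, is carried by every cell as the introduced fusion, so its level is not a sign of lineage. Of 22 markers of macrophages, granulocytes, lymphocytes, endothelium, fibroblasts, muscle, neurons, hepatocytes and pluripotent cells, 0 reached that level; their summed level was 0.21 TPM in replicate 1 and 0.47 TPM in replicate 2, and 10 had 0 counts in both. In bulk RNA, fewer cells of a type and less RNA per cell cannot be told apart.

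Of the 34 genes, 29 were detected, which here means at least 1 TPM in each library. The same share over all 21474 protein-coding genes was 39.0%. Hk3, Eno2, Ldhb, Pfkfb3 and Slc16a3 did not reach the minimum. Levels ran over a wide range: 14 genes had at least 100 TPM in each library and 4 (Aldoa, Tpi1, Gapdh and Ldha) at least 1000 TPM. The median over all 34 was 60.3 TPM in replicate 1 and 69.9 TPM in replicate 2, and the 29 detected genes had a median of the mean level of 114.7 TPM beside 20.5 TPM for the 8376 protein-coding genes detected. By group, the 20 glycolytic enzymes had a median of the mean level of 138.2 TPM, the 7 pentose phosphate enzymes 159.2 TPM and the 4 carriers 57.5 TPM. In replicate 1 the glycolytic median was 150.1 TPM and the pentose phosphate median 97.6 TPM. In replicate 2 they were 126.2 and 186.6 TPM, so the order of these groups by TPM turned between the libraries. Of the 20 glycolytic enzymes 17 were detected, and of the pentose phosphate enzymes all 7. Together the 34 genes held 2.67% of all TPM in replicate 1 and 3.69% in replicate 2.

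TPM depends on which transcript models the reads were assigned to. More than 50% of the TPM sat on models annotated as non-coding, in both libraries, for 4 of the 29 detected genes: Pfkp, Tpi1, Gapdh and Pklr. The class of each model was read from a later annotation than the deposited one. Among all 8376 detected protein-coding genes this share was 17.2%. These models are short, and short models raise TPM. A second scale is therefore given, the counts per kilobase of the gene's longest protein-coding model and per 1000000 counts, called the fixed-length level below; it was added after the data were seen. On that scale the median over all 34 genes was 33.6 in replicate 1 and 37.5 in replicate 2.

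**Figure D1:**
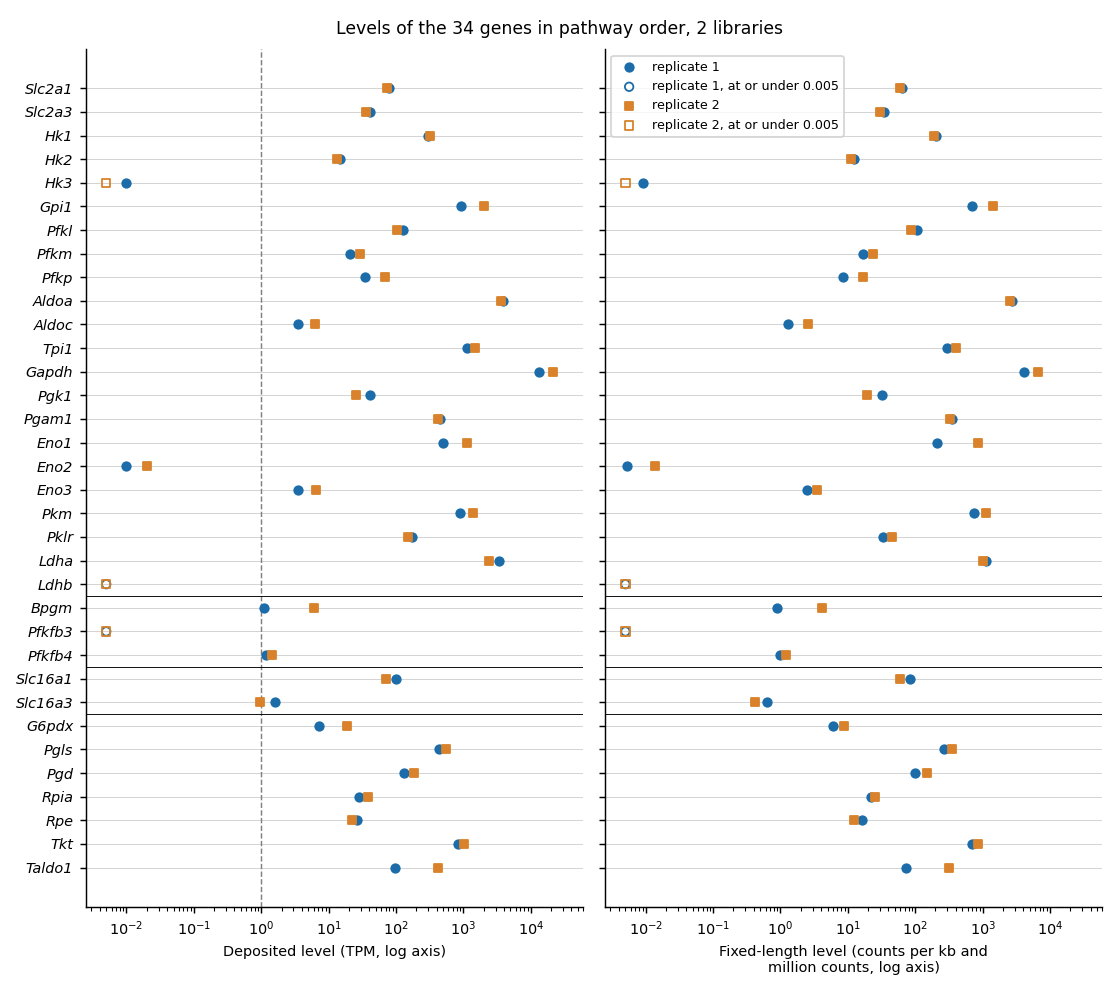
Level of each of the 34 genes in pathway order, from the glucose carriers at the top to the pentose phosphate enzymes at the bottom, as deposited TPM (left) and as fixed-length level (right), both on log axes. Points are single libraries, open points lie at or under the left edge of the scale, horizontal lines part the groups and the dashed line is 1 TPM; Gapdh is highest on both scales, and Hk3, Eno2, Ldhb and Pfkfb3 lie at the low end.

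Glucose enters cells through facilitative carriers, and both listed carriers were expressed. Slc2a1 (chr4:119108711-119137983, plus strand), which encodes the basal carrier GLUT1, stood at 79.5 and 74.2 TPM in replicates 1 and 2. Slc2a3, which encodes the high-affinity carrier GLUT3, stood at 41.1 and 35.4 TPM. The ranges did not overlap, and Slc2a1 was 1.93 and 2.09 times Slc2a3 by TPM, and 1.91 and 2.05 times by fixed-length level. Each carrier was close to equal in the libraries, with scaled count ratios of replicate 2 to replicate 1 of 1.01 for Slc2a1 and 0.94 for Slc2a3. Of 12 other hexose and lactate carrier genes, 2 were detected: Bsg, which encodes the chaperone that brings lactate carriers to the membrane, at 1217 and 847.9 TPM, and the intracellular carrier gene Slc2a8 at 65.9 and 39.0 TPM. The scaled count ratio of Slc2a8 was 1.04 (0.98 to 1.10), so its lower TPM in replicate 2 was not seen in counts. The insulin-responsive carrier gene Slc2a4 had 0.35 and 0.03 TPM.

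Hexokinase traps glucose in the cell as glucose 6-phosphate, and Hk1 (chr10:62268855-62379908, minus strand in GRCm38) was the leading gene. It stood at 297.7 and 315.6 TPM in replicates 1 and 2 (306.7 ± 12.7, SD, n = 2), and Hk2 at 14.7 and 13.3 TPM. Hk1 was 20.3 and 23.7 times Hk2 by TPM, and 16.4 and 16.7 times by fixed-length level, so the order did not depend on the scale. Hk3 had 2 counts in replicate 1 and 0 in replicate 2, where a count of 0 allows up to 3 counts, or 5.78e-06% of all counts, for counting error only.

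The start of the Hk1 protein sets where the enzyme sits, because hexokinase 1 of most tissues begins with a short stretch that binds mitochondria. The coding bases that lie before the exon shared by the Hk1 transcripts are shown from start codon (capitals) onward, 5′ to 3′ on the minus strand of chromosome 10 in GRCm38, since they tell the transcripts apart.
Hk1-201: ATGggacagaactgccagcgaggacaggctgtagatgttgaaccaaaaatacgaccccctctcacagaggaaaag
Hk1-202: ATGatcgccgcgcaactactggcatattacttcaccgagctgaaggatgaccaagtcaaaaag
Hk1-212: ATGgcatgtcctgtgcagaag
Hk1-202 has the start that encodes the mitochondria-binding stretch, and Hk1-201 and Hk1-212 have other starts. The first exon of Hk1-201 lies at chr10:62358336-62358362, upstream of that of Hk1-202 at chr10:62340013-62340542. Hk1-201 held 85.6% of the TPM of Hk1 in replicate 1 and 66.0% in replicate 2 (75.8 ± 13.9%, SD, n = 2). Hk1-202 held 7.76 and 11.9%, and the 896-base model Hk1-212 held 6.54 and 8.00%. Hk1-201 was thus the leading transcript in both libraries. A non-coding model, Hk1-220, held 0% in replicate 1 and 14.1% in replicate 2.

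Glucose phosphate isomerase, encoded by Gpi1, makes fructose 6-phosphate. Gpi1 stood at 923 and 1990 TPM in replicates 1 and 2 (1456 ± 754, SD, n = 2), and at 686 and 1444 by fixed-length level. Replicate 2 was higher on both scales, with a scaled count ratio of 2.27 (95% counting interval 2.25 to 2.28).

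Phosphofructokinase commits sugar to glycolysis and exists as a liver (Pfkl), a muscle (Pfkm) and a platelet form (Pfkp) that can mix in tetramers; red cells are known to hold the liver and the muscle form. Pfkl led in both libraries, at 126.0 and 103.5 TPM. Pfkm stood at 20.9 and 28.7 TPM. Pfkp stood at 34.9 and 68.6 TPM, above Pfkm by TPM, but 93.43 and 94.95% of its TPM sat on non-coding models, chiefly the 931-base model Pfkp-206. On the fixed-length scale Pfkl had 105 and 85.8, Pfkm 16.9 and 23.3, and Pfkp 8.36 and 16.7, so that Pfkm lay above Pfkp in each library and the order of these 2 genes reversed. The lead of Pfkl over Pfkp was 3.61-fold in replicate 1 and 1.51-fold in replicate 2 by TPM, and 12.6-fold and 5.13-fold by fixed-length level. Over Pfkm it was 6.03-fold and 3.60-fold by TPM. Pfkm itself is read from 2 models with different first exons: Pfkm-202 held 89.1% in replicate 1 and 57.0% in replicate 2, and Pfkm-201 the rest.

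Fructose 2,6-bisphosphate, the strongest activator of phosphofructokinase, is made and removed by the 4 enzymes of the Pfkfb family. Pfkfb4 stood at 1.17 and 1.46 TPM, with 223 and 209 counts. Pfkfb3, the form with the highest kinase activity, had 1 count in replicate 1 and 0 in replicate 2, at or under the floor of 3 counts. Of the 5 other genes listed for this branch, Pfkfb2 was detected, at 5.02 and 8.62 TPM; Tigar, which removes the activator, had 0.49 and 0.65 TPM.

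Aldolase splits fructose 1,6-bisphosphate into 2 triose phosphates, and almost all of its mRNA came from Aldoa, the form of muscle and red cells. Aldoa stood at 3814 and 3645 TPM in replicates 1 and 2 (3730 ± 119.5, SD, n = 2), and ranked 29 and 36 among protein-coding genes. Aldoc, the brain form, stood at 3.50 and 6.32 TPM, 1090 and 577 times lower. Aldoa was among the steadiest genes, with a scaled count ratio of 1.02 (1.01 to 1.02), while that of Aldoc was 2.09 (1.78 to 2.47).

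Triose phosphate isomerase (Tpi1) interconverts the trioses. It stood at 1149 and 1504 TPM, of which 77.9 and 71.0% sat on Tpi1-204, a model of 446 bases in the deposited annotation. In the later annotation used for names and classes Tpi1-204 is non-coding and has 1552 bases, so the class of the shorter model is not known. By fixed-length level Tpi1 had 296 and 398, that is 0.108 and 0.154 of the level of Aldoa, against 0.301 and 0.413 by TPM.

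Glyceraldehyde phosphate dehydrogenase (Gapdh) makes the first NADH of the pathway and was the most abundant of the 34 genes. Gapdh stood at 13053.8 and 21260.5 TPM in replicates 1 and 2, ranking 5 and 2 among protein-coding genes, and at 4142 and 6622 by fixed-length level, ranking 10 and 5. The 565-base model Gapdh-206, annotated as a retained intron and lying at chr6:125161853-125162527 on the minus strand, held 68.5 and 73.5% of this TPM. Gapdh exceeded Aldoa 3.42-fold and 5.83-fold by TPM and 1.52-fold and 2.56-fold by fixed-length level. Reads of Gapdh are also hard to place: 40 other genes, nearly all processed pseudogenes, shared 50% or more of their own 31-base words with it. These partners held 51365 counts in replicate 1 and 15458 in replicate 2, or 11.3 and 3.07% of the sum with Gapdh. The highest were Gm10359 with 25987 and 4709 counts, Gm12671 with 14872 and 4709, and Gm7336 with 9339 and 4709. The scaled count ratio of Gapdh was 1.72 alone; with the partners added its log2 value was 0.66 beside 0.78.

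Phosphoglycerate kinase, which makes ATP in the step after Gapdh, was low beside its neighbours. Pgk1 stood at 40.7 and 25.1 TPM in replicates 1 and 2 (32.9 ± 11.1, SD, n = 2). Aldoa exceeded it 93.7-fold and 145.3-fold by TPM and 85.5-fold and 132.3-fold by fixed-length level, and Pgam1, the next enzyme, 10.9-fold and 16.6-fold by TPM. The gene lies on the plus strand at chrX:106187100-106203699. The gap to Gapdh was 320-fold and 847-fold by TPM and 130-fold and 339-fold by fixed-length level. The processed pseudogene Pgk1-rs7 held 118 and 62 counts, 2.86 and 3.26% of the sum with Pgk1, and 54.7% of the 31-base words of Pgk1 occur in other genes. The part of shared reads in the level of Pgk1 was not tested. The testis gene Pgk2 had 0 counts in both libraries. A model annotated for nonsense-mediated decay, Pgk1-203, held 46.3% of the gene's TPM in replicate 1 and 63.7% in replicate 2, and the coding model Pgk1-201 held 53.7 and 36.3%; the leading transcript therefore differed between the libraries. Pgk1 was the gene with the lowest scaled count ratio of the 30 compared, 0.66 (0.62 to 0.70).

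Phosphoglycerate mutase 1 (Pgam1), read from 1 model, stood at 445.3 and 416.6 TPM (430.9 ± 20.3, SD, n = 2) with a scaled count ratio of 1.00 (0.99 to 1.02, 95% counting interval). The pseudogene Pgam1-ps2 held 1258 and 447 counts, 2.73 and 1.40% of the sum. Pgam2, the muscle form, had 0.24 and 0.99 TPM. Bisphosphoglycerate mutase (Bpgm), the enzyme of the red cell side branch, was low: 1.11 TPM with 138 counts in replicate 1 and 6.02 TPM with 478 counts in replicate 2. Pgam1 exceeded it 401-fold and 69.2-fold by TPM. The 2 values of Bpgm were far apart, with a scaled count ratio of 4.95 (4.09 to 6.02). Bpgm-201 held 100 and 80.7% of its TPM, and the 596-base model Bpgm-205 held 0 and 18.9%. Among the erythroid markers the scaled count ratio was 1.45 and 1.00 for the adult globin genes Hba-a1 and Hbb-bs and 1.27 for Alad, an enzyme of haem synthesis. For Klf1, an erythroid activator, it was 0.84. For Gata1, which these cells carry as the introduced fusion, it was 1.74. The part of these genes in the value of Bpgm was not tested.

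Enolase makes phosphoenolpyruvate, and the ubiquitous form Eno1 led in both libraries. Eno1 stood at 506.0 and 1136 TPM in replicates 1 and 2, and at 210 and 856 by fixed-length level. Eno3, the muscle form, stood at 3.47 and 6.56 TPM, and Eno2, the neuronal form, had 1 and 2 counts. Eno1 was 146 and 173 times Eno3 by TPM and 85.3 and 245 times by fixed-length level. The libraries disagreed on Eno1 itself. Its counts were 29306 and 90129, a scaled ratio of 4.39 (4.34 to 4.45), whereas the TPM ratio was 2.24.
The shares of its models differed as well. Eno1-201, a coding model of 1902 bases with an internal first exon, held 5.90% in replicate 1 and 86.1% in replicate 2. In replicate 1 the short non-coding models Eno1-211 and Eno1-207 held 38.4 and 22.3%, against 0.04 and 0.43% in replicate 2, and the full-length model Eno1-202 held 33.3 and 13.3%. A near-identical gene, Eno1b, had 13013 counts in replicate 1 and 13989 in replicate 2, and Gm4735 had 86 and 110. These 2 partners made up 30.9 and 13.5% of the sum with Eno1. With them added, the log2 ratio between the libraries was 1.81 beside 2.14 for Eno1 alone, so the level of Eno1 in replicate 1 is uncertain beyond its counting error.

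Pyruvate kinase makes ATP and pyruvate in the last step. Pkm, which encodes the muscle forms, stood at 899.1 and 1380 TPM in replicates 1 and 2 (1139 ± 339.7, SD, n = 2), and Pklr, which encodes the liver and red cell forms, at 174.2 and 149.0 TPM. Pkm lies on the plus strand at chr9:59656368-59679375. It was 5.16 and 9.26 times Pklr by TPM. Most of the TPM of Pklr sat on a 345-base non-coding model, and by fixed-length level, with 735 and 1123 for Pkm and 33.3 and 45.5 for Pklr, the lead was 22.1-fold and 24.7-fold. Pkm held 83.8 and 90.3% of this step by TPM and 95.7 and 96.1% by fixed-length level. The transcripts of Pkm use either of a pair of mutually exclusive exons: the upstream one gives the constitutively active M1 form of differentiated muscle and brain, and the downstream one the M2 form of proliferating cells, which is open to allosteric control. Both exons are shown, 5′ to 3′ on the plus strand of GRCm38, with capitals where they differ, since the choice between them is read from these bases.
Pkm-202 exon, M1 form, chr9:59675029-59675195: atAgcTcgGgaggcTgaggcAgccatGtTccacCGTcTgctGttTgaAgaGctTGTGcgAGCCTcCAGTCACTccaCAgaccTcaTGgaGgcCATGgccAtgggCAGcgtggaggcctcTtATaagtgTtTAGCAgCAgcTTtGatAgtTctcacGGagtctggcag
Pkm-201 exon, M2 form, chr9:59675568-59675734: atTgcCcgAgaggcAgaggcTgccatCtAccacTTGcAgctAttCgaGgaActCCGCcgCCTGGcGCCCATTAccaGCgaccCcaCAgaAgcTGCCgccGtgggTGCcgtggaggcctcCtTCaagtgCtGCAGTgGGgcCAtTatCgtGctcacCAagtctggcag
Each exon has 167 bases, of which 103 are identical and 64 differ. Pkm-201 held 99.5% of the TPM of Pkm in replicate 1 and 98.5% in replicate 2 (99.0 ± 0.69%, SD, n = 2). Pkm-202 held 0.48 and 1.46%, which are 4.33 and 20.2 TPM. The M2 exon thus led in both libraries, by far more than they differed.

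Pklr lies on the plus strand at chr3:89136142-89146784 and has 2 first exons, an upstream one for the red cell form and a downstream one for the liver form. The promoter windows before them, from RefSeq with build GRCm38.p6, are shown on the plus strand to the last base before the first annotated exon. Capitals mark AGATAA, the core of a GATA site, and GGGTG, the reverse of CACCC, the core bound by erythroid Krüppel-like factors, searched on both strands over the 250 bases before each start.
Pklr upstream promoter, chr3:89135892-89136141: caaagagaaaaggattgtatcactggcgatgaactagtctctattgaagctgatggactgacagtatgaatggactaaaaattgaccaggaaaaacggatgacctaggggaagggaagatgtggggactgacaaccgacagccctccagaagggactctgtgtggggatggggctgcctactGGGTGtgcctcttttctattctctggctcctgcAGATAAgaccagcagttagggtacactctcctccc
Pklr downstream promoter, chr3:89136373-89136571: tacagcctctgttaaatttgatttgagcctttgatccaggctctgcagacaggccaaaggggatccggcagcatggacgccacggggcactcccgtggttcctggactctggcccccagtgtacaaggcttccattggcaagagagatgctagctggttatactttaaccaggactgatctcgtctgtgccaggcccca
The upstream window held AGATAA at -35 and the reverse of CACCC at -68, counted from the start, and the downstream window held neither. Of all 32851 promoter windows in the table, 9.99% held AGATAA and 52.0% held CACCC on either strand. Of the 47 windows of the 33 genes of the pathway found there, some of which overlap, 4 (8.51%) held AGATAA and 30 (63.8%) held CACCC. The coding bases before the exon that both transcripts share are also shown, with the start codon in capitals.
Pklr-201, upstream first exon: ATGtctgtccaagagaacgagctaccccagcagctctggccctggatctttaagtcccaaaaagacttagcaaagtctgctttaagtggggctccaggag
Pklr-202, downstream first exon: ATGgaag
Models with the upstream exon (Pklr-201 and Pklr-205) held 96.1% of the TPM of Pklr in replicate 1 and 70.0% in replicate 2, and models with the downstream exon (Pklr-202 and Pklr-203) held 3.94 and 29.7%. In counts the upstream models held 91.4 and 50.2%, and the downstream ones 8.57 and 49.8%. The upstream exon was ahead in both libraries by TPM, whereas in replicate 2 the 2 first exons were nearly equal by counts. Between the full coding models, Pklr-201 was ahead of Pklr-202 in replicate 1, at 28.6 against 3.20 TPM. In replicate 2 Pklr-201 was behind, at 22.9 against 26.2 TPM. Pklr-205, the short model of 2 exons, carried 79.6 and 54.6% of the TPM, the full coding model Pklr-201 16.4 and 15.4%, Pklr-202 1.84 and 17.6%, and Pklr-203 2.10 and 12.1%. By counts Pklr was higher in replicate 2, at 1.47 (1.42 to 1.52), and by TPM it was lower, so its direction turned with the scale.

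**Figure D2:**
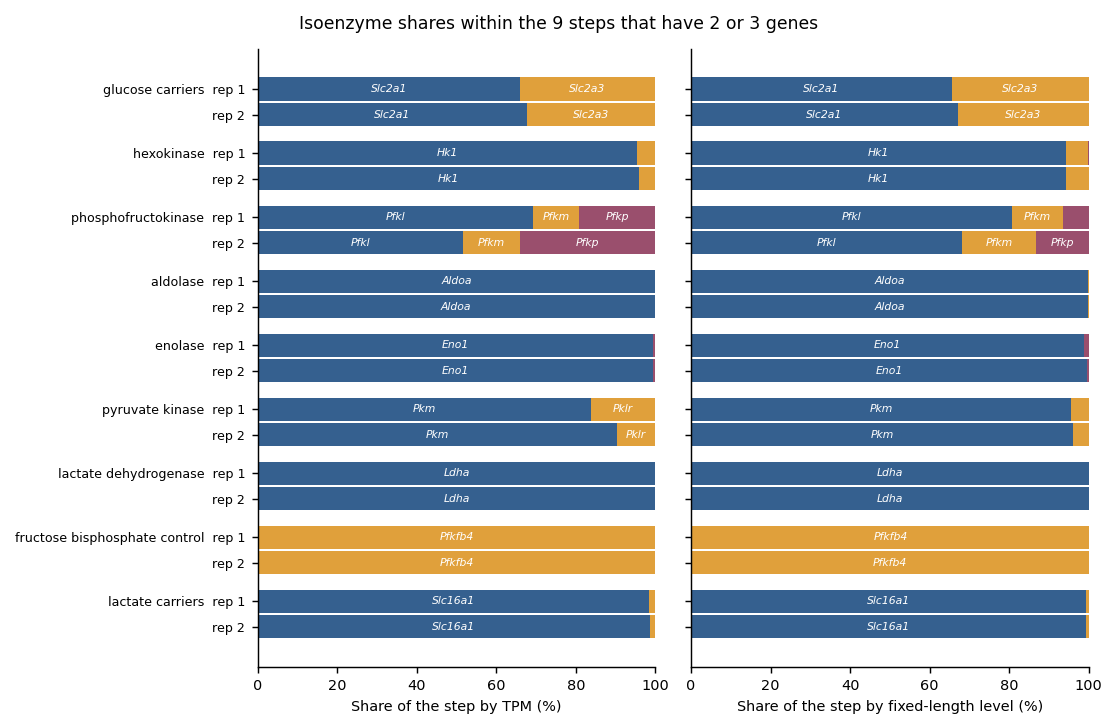
Share of each step's summed level held by its isoenzymes, by TPM (left) and by fixed-length level (right), in percent on axes from 0 to 100, with 1 bar for each library. 1 gene holds 90% or more in both libraries in 6 of the 9 steps by TPM and 7 by fixed-length level. 1 of these steps sets only Pfkfb4 against Pfkfb3 and leaves out the higher Pfkfb2. Phosphofructokinase and the glucose carriers are the most mixed.

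Lactate dehydrogenase was read from Ldha alone. Ldha (chr7:46841475-46855627, plus strand), which encodes the subunit of muscle and of cells that release lactate, stood at 3352 and 2435 TPM in replicates 1 and 2 (2893 ± 648.6, SD, n = 2). Among protein-coding genes Ldha ranked 34 and 52 by TPM, and 59 and 72 by fixed-length level. Ldhb, which encodes the heart subunit, had 0 counts in both libraries. Set against the floor of 3 counts per library, Ldha was at least 33350-fold higher in replicate 1 and at least 22662-fold higher in replicate 2 by counts per kilobase. The testis form Ldhc had 0 counts as well. A window before 1 of the 2 RefSeq starts of Ldha and that before the start of Ldhb are shown from RefSeq, each 5′ to 3′ on its gene's strand, because their transcripts stand so far apart. In Ldha, capitals mark CACGTG, the E-box bound by MYC and related factors, and GGGTG as above.
Ldha promoter, chr7:46845554-46845803, plus strand: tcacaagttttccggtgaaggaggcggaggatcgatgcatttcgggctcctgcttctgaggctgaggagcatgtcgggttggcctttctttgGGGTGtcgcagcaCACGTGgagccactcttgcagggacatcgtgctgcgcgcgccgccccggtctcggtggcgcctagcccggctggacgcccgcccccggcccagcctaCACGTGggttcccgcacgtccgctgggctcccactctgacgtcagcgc
Ldhb promoter, chr6:142507958-142508207, minus strand: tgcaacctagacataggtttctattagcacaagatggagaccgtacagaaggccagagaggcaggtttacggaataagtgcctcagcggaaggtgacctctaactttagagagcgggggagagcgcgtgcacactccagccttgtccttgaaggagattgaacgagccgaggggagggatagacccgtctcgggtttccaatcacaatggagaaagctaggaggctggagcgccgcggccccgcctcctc
The Ldha window shown, which lies before the first exon of Ldha-202, held CACGTG at -145 and -48. The other Ldha window, chr7:46846832-46847081, and the Ldhb window held none of the motifs searched. CACGTG stood in 6.02% of all windows and in 4 of the 47 windows (8.51%) of the 33 genes found in the table. ACGTG, the core of the site bound by hypoxia-inducible factors, which CACGTG also holds, stood in 16.6% of all windows and in 15 of these 47 (31.9%), some of which overlap each other. A match is a description of the letters and not a bound site. Ldha was also read from several models. Ldha-206, a coding model of 645 bases, held 52.6% in replicate 1 and 14.6% in replicate 2, Ldha-208, of 912 bases, held 37.8 and 67.7%, and Ldha-202, of 1588 bases, held 8.64 and 16.99%. The leading transcript differed, although the counts were alike, with a scaled ratio of 0.97 (0.96 to 0.98). By fixed-length level Ldha had 1114 and 1004, above Gpi1 and Pkm in replicate 1 and below both in replicate 2.

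Lactate leaves cells through monocarboxylate carriers. Slc16a1, which encodes MCT1, stood at 99.6 and 71.2 TPM. Slc16a3, which encodes MCT4 of highly glycolytic cells, stood at 1.59 and 0.95 TPM, with 191 and 94 counts, just above the detection minimum in replicate 1 and just below it in replicate 2. Slc16a1 was 62.6 and 75.0 times Slc16a3 by TPM, and 131 and 143 times by fixed-length level. Both were lower in replicate 2, with scaled count ratios of 0.77 (0.75 to 0.78) and 0.70 (0.54 to 0.90).

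The oxidative arm of the pentose phosphate pathway has 3 enzymes, and the first was the lowest. G6pdx (chrX:74409483-74429194, minus strand), which encodes glucose 6-phosphate dehydrogenase, the source of NADPH that is rate-limiting for the arm, stood at 7.25 and 18.7 TPM in replicates 1 and 2. Pgls, which encodes the lactonase, stood at 438.4 and 559.5 TPM, and Pgd, which encodes the second dehydrogenase, at 131.8 and 186.6 TPM. By fixed-length level G6pdx had 5.94 and 8.81, and Pgd was 16.9-fold higher in both libraries. Pgls was 44.7-fold and 39.4-fold higher than G6pdx on that scale. The TPM ratio of G6pdx between the libraries, 2.58, exceeded its scaled count ratio of 1.597 (1.47 to 1.73). G6pdx-201 held 99.4% in replicate 1 and 43.9% in replicate 2, where the short non-coding model G6pdx-202 held 35.6% after 0% in replicate 1. The related gene H6pd, whose enzyme works in the endoplasmic reticulum, had 0.71 and 0.63 TPM.

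In the arm that interconverts sugars, transketolase and transaldolase were the abundant genes. Tkt stood at 840.9 and 1019 TPM (930.1 ± 126.2, SD, n = 2), and its paralogs Tktl1 and Tktl2 had 0 counts in both libraries. Taldo1 stood at 97.6 and 418.3 TPM in replicates 1 and 2, with 6246 and 20325 counts, a scaled ratio of 4.65 (4.52 to 4.78). Tkt was thus 8.62-fold above Taldo1 in replicate 1 and 2.44-fold in replicate 2 by TPM. Taldo1-201 held 98.4 and 99.6% of the TPM of Taldo1, so the leading transcript was the same. The isomerase gene Rpia stood at 27.99 and 38.33 TPM and the epimerase gene Rpe at 25.9 and 22.1 TPM. Rpia lay above Rpe in each library on both scales, with mean fixed-length levels of 23.8 ± 2.05 and 14.5 ± 2.78 (SD, n = 2). Rpia-202, a non-coding model, held 0% of Rpia in replicate 1 and 26.7% in replicate 2.

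Within the 9 steps that have more than 1 listed gene, the leading gene exceeded the next by more than 2-fold in both libraries in 7 by TPM and in 8 by fixed-length level. The exceptions by TPM were the glucose carriers, at 1.93 in replicate 1, and phosphofructokinase, at 1.51 in replicate 2. Among the 7, fructose bisphosphate control set only Pfkfb4 against Pfkfb3, which was at or under the floor of 3 counts. Pfkfb2, which is not among the 34 genes, was higher than Pfkfb4, at 5.02 and 8.62 TPM in replicates 1 and 2. Of 12 further isoenzyme genes of glycolysis, 0 were detected.

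Between the libraries, 30 of the 34 genes averaged 10 counts or more and were compared after scaling over all genes; Hk3, Eno2, Ldhb and Pfkfb3 were not. With 1 library against 1 this compares libraries and not conditions, and intervals cover counting error only. Replicate 2 was over 2-fold higher for 6 of the 30 genes: Bpgm, Taldo1, Eno1, Gpi1, Pfkp and Aldoc. Over all 10863 genes compared, 7.64% were. Replicate 1 was over 2-fold higher for 0 of the 30 genes, against 2.00% of all genes. Taken by direction, 21 genes were higher in replicate 2 and 9 lower, and the median log2 ratio was 0.46 for the 30 genes against -0.01 for all genes compared. The genes lower in replicate 2 included Pgk1, Slc16a3, Slc16a1, Rpe and Pfkl, and the 4 carriers had a median of -0.24. By TPM in place of scaled counts, Pfkp and Aldoc fell under 2-fold, at log2 values of 0.98 and 0.85, and G6pdx passed it at 1.37. Aldoc also fell under it by library totals, at 0.96.

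**Figure D3:**
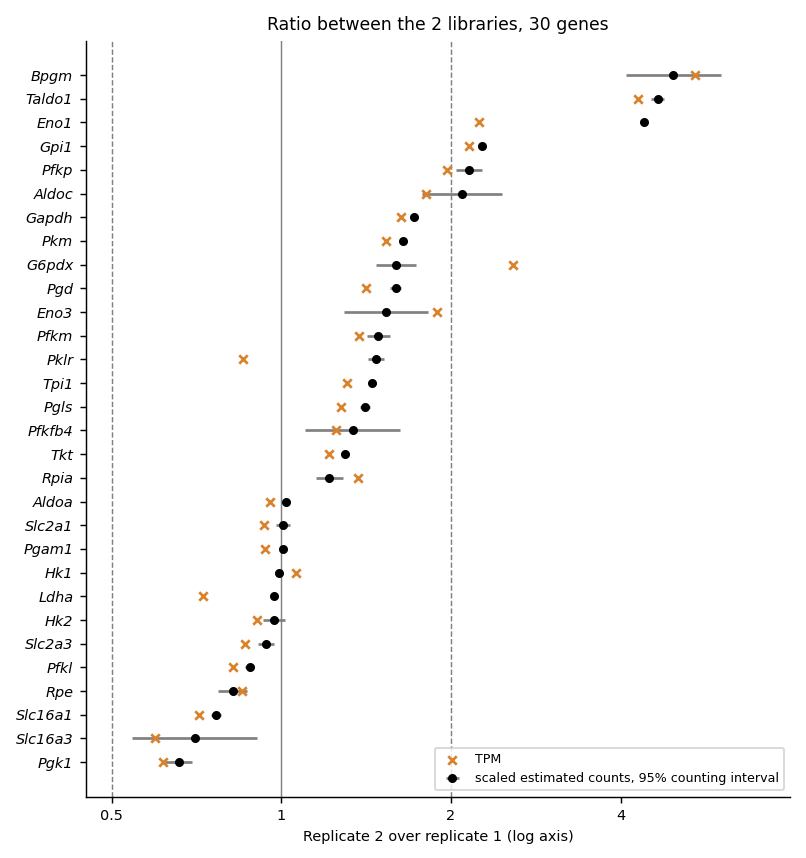
Ratio of replicate 2 to replicate 1 for the 30 genes that average 10 counts or more, ordered by ratio, on a log axis. Black points are scaled estimated counts with 95% counting intervals, crosses are TPM, and dashed lines mark 2-fold; Bpgm, Taldo1 and Eno1 lie over 4-fold by counts, and by TPM Eno1, Pklr and Ldha move to the left and G6pdx to the right.

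The leading transcript differed between the libraries for 3 of the 25 detected genes with at least 2 transcripts above 0: Pgk1, Eno1 and Ldha. Among the 6005 such protein-coding genes 17.6% did. The transcript leading in replicate 1 moved by at least 20 percentage points for 7 of the 25, namely Pfkm, Eno1, Eno3, Pklr, Ldha, G6pdx and Rpia, beside 19.8% of all. Eno3-201 held 83.4% in replicate 1 and 40.7% in replicate 2. Other leading transcripts were the same: Slc2a1-201, Slc2a3-201, Gpi1-201, Pfkl-201, Aldoa-201, Pgls-201, Pgd-201 and Tkt-201 led in both libraries, and Rpe-201 and Aldoc-202 did so with lower shares, 63.2 and 54.2% for the former and 58.6 and 70.1% for the latter. Shares come from short reads that overlapping models share, so they are estimates.

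**Figure D4:**
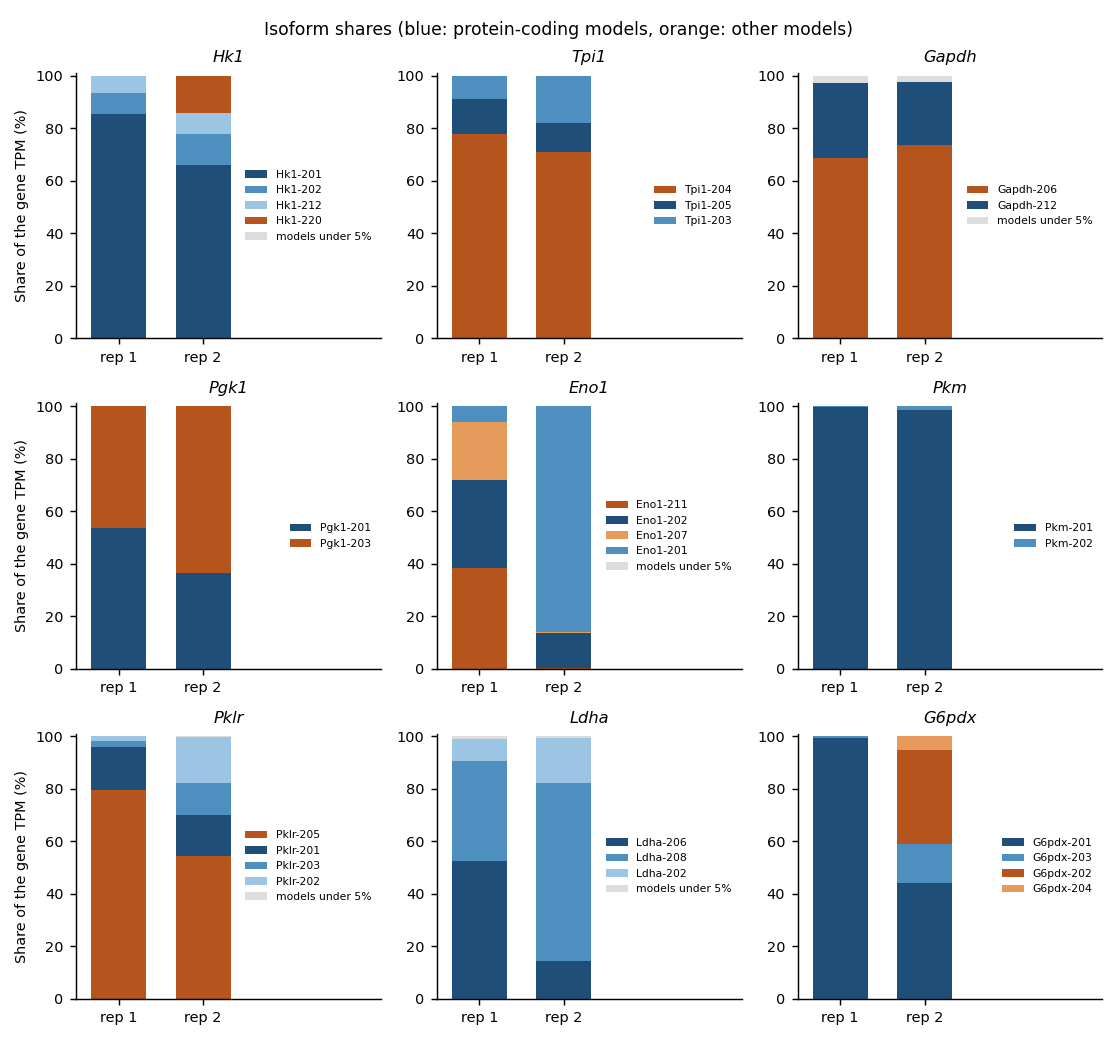
Isoform shares of 9 genes in each library, as percent of the gene's TPM on axes from 0; blue bars are protein-coding models, orange bars are other models and grey is the rest. Pkm is nearly all Pkm-201 in both libraries, Gapdh and Tpi1 are mostly on short non-coding models, and Eno1, Ldha, Pgk1, Pklr and G6pdx change between the libraries.

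Base composition went along with level. Over the 30 genes, the GC content of the longest coding model and the mean fixed-length level had a Spearman rho of 0.33, and over 9837 protein-coding genes 0.35, as a description across genes that share both libraries. Among those genes the median fixed-length level rose from 1.97 in the lowest GC decile to 23.9 in the highest in replicate 1, and from 1.54 to 22.1 in replicate 2. Rpe, with 39.1% GC, lay in the lowest decile and Pgls, with 65.9%, in the highest. Pgk1 had 49.7%, Bpgm 49.7%, G6pdx 52.6%, Gapdh 56.6% and Aldoa 56.9%. The part of base composition in any of these levels was not tested.

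Genes around the pathway were counted from lists of its branches, in which 49 of 91 genes found in the tables were detected, beside 39.0% of all protein-coding genes. Of the 91 genes, 20 had 0 counts in both libraries, and only those averaging 10 counts or more were compared between the libraries. Among the genes so compared, 4 (Pgam2, Tkfc, Galt and Mpi) were over 2-fold higher in replicate 2 and 0 in replicate 1. The shares over all genes compared were 7.64 and 2.00%, and the 4 are not to be read as a share of all 91. Pyruvate entry to mitochondria had 13 of 14 genes detected, led by the pyruvate carrier gene Mpc2 at 112.5 and 151.7 TPM and by Pdk1, whose kinase switches pyruvate dehydrogenase off, at 116.8 and 73.7 TPM. By scaled counts Mpc2 was lower in replicate 2, at 0.84 (0.81 to 0.86), so its direction turned with the scale. Dlat, a core subunit of pyruvate dehydrogenase, stood at 58.2 and 49.35 TPM, and Pdk2 at 32.8 and 36.9 TPM. The shuttles that carry NADH electrons into mitochondria had 6 of 7 detected, with Mdh2 at 531.6 and 687.1 TPM, Got2 at 65.48 and 95.01 TPM, Gpd1l at 12.8 and 8.69 TPM and Got1 at 7.70 and 9.58 TPM. The cytosolic Gpd1, which feeds the glycerol phosphate shuttle, had 2 counts in replicate 1 and 0 in replicate 2.

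All 9 genes of entry from other sugars were detected, with the galactokinase gene Galk1 at 132.8 and 96.9 TPM, Galt at 42.4 and 54.8 TPM, Sord at 50.9 and 42.99 TPM and Khk at 33.9 and 59.01 TPM. Of the 12 genes of glycogen and glucose phosphate 7 were detected, led by Pgm2 at 76.5 and 57.6 TPM, Pgm1 at 40.2 and 43.2 TPM, Gys1 at a mean of 29.1 TPM and Pgm2l1 at 16.1 and 12.9 TPM. Of 4 gluconeogenesis genes, G6pc3 and Pck2 were detected, at 21.4 and 21.9 TPM and at 14.2 and 20.45 TPM. Fbp1, Fbp2 and G6pc, whose enzymes reverse steps of glycolysis in gluconeogenesis, had 0 counts in both libraries. The pentose phosphate list held 4 genes found in the tables, of which the ribokinase gene Rbks was detected, at 7.95 and 6.39 TPM.

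Of 12 regulators of glycolytic genes 8 were detected. Myc, which binds the E-box, stood at 685.8 and 839.4 TPM, Egln2, a prolyl hydroxylase that marks hypoxia-inducible factors for decay, at 189.3 and 157.2 TPM, and Arnt, the common partner of those factors, at 50.02 and 52.98 TPM. Mlx, a partner of the carbohydrate-responsive factors, stood at 22.6 and 17.1 TPM, Egln1 at 20.9 and 15.9 TPM and Hif1a at 20.85 and 15.09 TPM. The scaled count ratios of Arnt, 0.88 (0.85 to 0.90), and Mlx, 1.08 (0.97 to 1.19), lay in the other direction from their TPM. Epas1 had 2 counts in replicate 1 and 0 in replicate 2, and Egln3 had 0 counts in both. The level of these mRNAs gives no measure of the activity of the factors.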

How the data were processed

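RNA described as polyadenylated was measured in 2 libraries of G1E-ER4 cells, for each of which the deposited gene and transcript tables were read. The expected and posterior mean counts are the authors' estimated counts, per the file headers. TPM, posterior mean TPM and FPKM were deposited by the authors as levels divided by length, per the file headers. The isoform share is deposited as a percent of the gene's TPM. Reads were placed on mm10 with GENCODE M4 gene models, per the readme files, with aligner, quantifier and strand setting not given in the sources used here, so overlapping genes are uncertain. Gene names, classes and positions came from GENCODE M21 of the same build, matched without version; all 223 transcript models of the 34 genes matched.

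The members and lists were chosen with earlier results of these data known, and no test or p-value is given. All 34 genes are named, with the 4 highest detected genes of each related list, up to 3 genes sharing sequence with each member, and leading transcripts; further related genes and other values were named after they were seen. A few listed genes are not reported here. Libraries were scaled by TMM in edgeR 4.0.16 (R 4.3.3) on genes averaging 10 or more rounded counts. The 95% Clopper-Pearson intervals (scipy 1.17.1) of the count ratio hold only counting error, as PCR reads are not independent molecules. The method was tested on simulated counts with counting error only, so that test cannot cover spread between libraries or read assignment. In ratios between isoenzymes, a count at or under 3 in the lower gene was set to a floor of 3 counts. Ratios between the libraries used no floor. Genes sharing at least 50% of 31-base words were listed as partners. Promoters are the 250 bases before RefSeq starts. Alternatives were other units, scalings including DESeq2 1.42.0 size factors, minimums and single libraries; the fixed-length level, protein-coding models alone and added partner counts were chosen after seeing the data.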

Additional observations from a re-analysis of the deposited data

How the results depend on the processing

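Most counts of genes and steps changed little with the processing, whereas the median level depended on the unit and the median ratio on the scaling. The median level over the genes was 64.3 TPM as a mean of both libraries, 69.9 and 60.3 with a single library, 55.9 in FPKM, 35.6 by fixed-length level and 43.9 by TPM of protein-coding models only, the last 2 chosen after seeing the data. The median log2 ratio of replicate 2 to replicate 1 was 0.46 with the scaling used, 0.35 by library totals, 0.34 by TPM and 0.31 by TPM + 1. With 1.5-fold in place of 2-fold, 11 genes were higher in replicate 2 and 1 in replicate 1, beside 6 and 0. Without replicate 1 there were 29 detected genes and 7 steps with 90% or more in 1 isoenzyme, and without replicate 2 there were 30 and 6; each single library gave 8 steps led over 2-fold and 5 genes mostly on non-coding models. Taken gene by gene, the level moved by more than the SD of the libraries for 8 of the genes in FPKM, 4 in posterior mean TPM, 2 after rescaling without globin, mitochondrial and rRNA-like genes, 8 by protein-coding models and 20 by fixed-length level. The 4 that moved in posterior mean TPM were Hk3, Eno2, Ldhb and Pfkfb3, which have almost no counts and an SD near 0. FPKM, the rescaled TPM and the fixed-length level have other units or totals. A move on them therefore includes that change and is not by itself a shift in expression. The part of other causes was not tested. No paired analysis was possible because there is 1 group. Depth limits Hk3, Eno2, Ldhb and Pfkfb3, each with at most 2 counts; for abundant genes such as Gapdh, Gpi1 and Eno1 the libraries differ by more than their counting error, whereas for Pgam1 and Hk1 the counting interval of the ratio holds 1.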
